A study of Mus musculus with 4 samples.

Results

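Serpinb8, Lars2, Fam151a, Ppp1r1a, Ang, Dlgap1 and Ucn3 are 7 of the 32227 genes listed in single-cell RNA-Seq counts of mouse islets. They were chosen from measured values, as genes that led when β cells of Myt3 mutant libraries were set beside β cells of a control library. Their levels in β cells by genotype are therefore a description with no test. Comparisons of mutant β cells with other cell classes hold the same β values and are given as a description too, beside control 2, which was not chosen for being high. The mutant mice were homozygous for an insertion of 12 bp in Myt3 (Myt3IM/IM), a zinc finger gene listed as St18, that disrupts an upstream open reading frame. The insertion is in the germline, so all islet cells carried it. Control mice were WT mice from the intercross of heterozygotes. All were adult, the line was made with CRISPR-Cas9 and backcrossed, and each sample pooled islets of males and females. The strain of the backcross is CBA/BL6j in the study's methods and C57Bl/6j elsewhere in its text. For every sample, normal diet and PIPseq stand in the labels and a high-fat diet and inDrop-Seq in the study's methods, and which holds could not be settled here. There are 2 libraries per genotype by label. Counts were read for mutant 1, mutant 2 and control 2, the order in which values of the 3 libraries are given, and those of control 1 were not analysed here.

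Pancreatic islets hold insulin-secreting β cells, glucagon-secreting α cells and somatostatin-secreting δ cells beside endothelial, stromal and immune cells. Mature β cells are set apart by a programme of glucose sensing, insulin processing and regulated secretion, and Ucn3 is among the last genes of that programme to appear. Ucn3 encodes urocortin 3, a peptide of the corticotropin-releasing factor (CRF) family that β cells release with insulin and that acts on CRF receptor 2, which δ cells carry. Ppp1r1a encodes inhibitor-1, which blocks protein phosphatase 1 (PP1) once protein kinase A has phosphorylated it. Lars2 encodes the leucyl-tRNA synthetase of mitochondria, and Serpinb8 an intracellular serine protease inhibitor. Ang encodes angiogenin, a secreted ribonuclease of the RNase A family, and Dlgap1 a scaffold protein known from the postsynaptic density. Fam151a is poorly characterised.

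In the GENCODE vM21 annotation of GRCm38, Serpinb8 (ENSMUSG00000026315.13) lies on the plus strand at chr1:107590006-107610484, Lars2 (ENSMUSG00000035202.8) on the plus strand at chr9:123366927-123462666 and Fam151a (ENSMUSG00000034871.2) on the plus strand at chr4:106733889-106748292. Ppp1r1a (ENSMUSG00000022490.7) lies on the minus strand at chr15:103530279-103538003 and Ucn3 (ENSMUSG00000044988.7) on the minus strand at chr13:3940688-3945349. Ang (ENSMUSG00000072115.11) lies on the plus strand at chr14:51091150-51102009, and Dlgap1 (ENSMUSG00000003279.17) on the plus strand at chr17:69969073-70821413. The 7 genes thus lie on 7 chromosomes. Some counts are uncertain because genes overlap. Ang overlaps Rnase4 on the same strand and has close paralogs, Fam151a overlaps Acot11 on the opposite strand, and Dlgap1 overlaps 2 noncoding genes on the opposite strand.

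RefSeq promoters (GRCm38.p6, from 250 bases before to 50 after the annotated start) were found for 6 of the 7 genes, with 7 promoters in all. They are shown for Serpinb8, the gene with the largest ratio to control, for Ang, whose promoter held the most motif matches, and for Ucn3, the maturity gene. Capitals mark matches to the motifs named after the sequences, in lines read 5′ to 3′ on the gene's strand. The Serpinb8 window is chr1:107589756-107590055 (plus strand), the Ang window chr14:51090827-51091126 (plus strand) and the Ucn3 window chr13:3945300-3945599 (minus strand).
Serpinb8: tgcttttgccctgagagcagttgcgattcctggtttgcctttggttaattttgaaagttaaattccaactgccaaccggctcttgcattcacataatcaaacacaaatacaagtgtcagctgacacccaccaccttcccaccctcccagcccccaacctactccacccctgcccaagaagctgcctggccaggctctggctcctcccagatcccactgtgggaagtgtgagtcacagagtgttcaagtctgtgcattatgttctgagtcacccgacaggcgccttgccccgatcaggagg
Ang: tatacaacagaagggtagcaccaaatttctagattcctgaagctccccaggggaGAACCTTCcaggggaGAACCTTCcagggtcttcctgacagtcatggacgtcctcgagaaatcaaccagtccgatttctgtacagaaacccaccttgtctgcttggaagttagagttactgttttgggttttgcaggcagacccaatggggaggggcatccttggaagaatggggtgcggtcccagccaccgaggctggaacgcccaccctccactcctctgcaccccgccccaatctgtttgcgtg
Ucn3: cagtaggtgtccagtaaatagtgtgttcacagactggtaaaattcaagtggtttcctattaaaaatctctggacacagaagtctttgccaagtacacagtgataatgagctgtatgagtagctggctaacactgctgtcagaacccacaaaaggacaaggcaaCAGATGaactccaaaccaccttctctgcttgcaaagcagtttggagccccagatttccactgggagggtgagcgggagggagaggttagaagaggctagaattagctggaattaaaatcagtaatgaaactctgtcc

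The motifs were searched on both strands in all 32851 promoters of the table. GAANNTTC, the core of a heat shock element, matched 2 times in the Ang promoter, 196 and 181 bases before the start, and was held by 7.86% of all promoters. CAGATG, an E-box of the NeuroD type, matched in the Ucn3 promoter, 87 bases before the start, and in that of Fam151a, 1 base before the start, and was held by 17.2% of all promoters. TGCTGA, part of the Maf recognition element, matched in 1 of the 2 Dlgap1 promoters and in 19.5% of all promoters. TAATTA, a homeobox core held by 5.29% of all promoters, matched in none of the 7, and neither Serpinb8 nor Lars2 held a match to any of these letters. A match is a description of the sequence and does not show a bound site.

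Filtering kept 2940, 2040 and 2283 cells in the 3 libraries, with median depths of 2427, 3851.5 and 14051 UMIs (unique molecular identifiers, 1 per captured mRNA molecule). Cells were classed by the share of their UMIs taken by hormone mRNAs. This gave 2150, 1493 and 1996 β cells, 319, 230 and 40 α cells, 26, 36 and 34 δ cells, and 83, 62 and 79 non-endocrine cells in that order. The summed level of 8 β markers was 504870 to 615950 CPM (counts per 1000000 UMIs) in β cells and 134886 at most in any other class. That of 7 α markers was 182075 to 206017 in α cells. These sums are mostly the hormones that defined the classes, so they are no independent check. Apart from the hormones, each β marker was highest in β cells of each library, and each α marker was higher in α than in β cells. Of the δ markers, Rbp4, Hhex and Ptprz1 were higher in δ than in β cells of each library, while Ghsr was barely detected. No barcode was shared between libraries. Control 2 stood apart in depth and in insulin, which took a median of 55.1% of the UMIs of its β cells against 39.9% and 42.1% in the mutant libraries, and its batch entry in the labels differs from that of the mutants. With 1 control library, genotype, batch and depth cannot be told apart. St18 itself was at 71.7, 85.9 and 107 CPM in β cells, and since an insertion need not change the transcript count, this is no check of the labels.

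In β cells, both mutant libraries exceeded control 2 by at least 3-fold for 6 of the 7 genes, and Ucn3 was 1.57 and 1.40-fold higher. Levels are the CPM of summed β cells after scaling by the trimmed mean of M-values (TMM), which aligns the bulk of genes between libraries. Serpinb8 stood at 113 CPM in mutant 1, 89.4 in mutant 2 and 7.93 in control 2, from 901, 778 and 212 UMIs. Lars2 stood at 575, 468 and 72.6 CPM in the same order, from 4594, 4073 and 1940 UMIs. For both genes the mutant libraries lay far above control 2 and close to each other. On the log2 scale, the Serpinb8 ratio to control 2 was 3.82 in mutant 1 (95% counting interval 3.61 to 4.05) and 3.48 in mutant 2 (3.27 to 3.72), and the mutant libraries differed by 0.33. The Lars2 ratios were 2.98 and 2.69, with a gap of 0.30.

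Fam151a was at 182, 168 and 33.5 CPM, with log2 ratios of 2.44 and 2.32. Ppp1r1a was at 687, 619 and 159 CPM, with log2 ratios of 2.11 and 1.96. These genes differed between the mutant libraries by 0.11 and 0.15, far less than from control 2. Ang was at 281, 235 and 77.8 CPM (log2 ratios 1.85 and 1.59) and Dlgap1 at 144, 133 and 43.3 CPM (log2 ratios 1.73 and 1.61). Ucn3 was at 328, 292 and 209 CPM, from 2619, 2542 and 5589 UMIs. Its log2 ratios were 0.65 (0.58 to 0.71) and 0.48 (0.41 to 0.55), higher in both mutant libraries by more than counting error. In mutant 2 it fell short of 0.5, the fold that the study used. The study applied that fold to single cells in Seurat, a measure unlike this one. Ucn3 was past 0.5 in both mutant libraries without TMM factors (1.24 and 1.08) and with DESeq2 size factors (0.72 and 0.56).

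**Figure D1:**
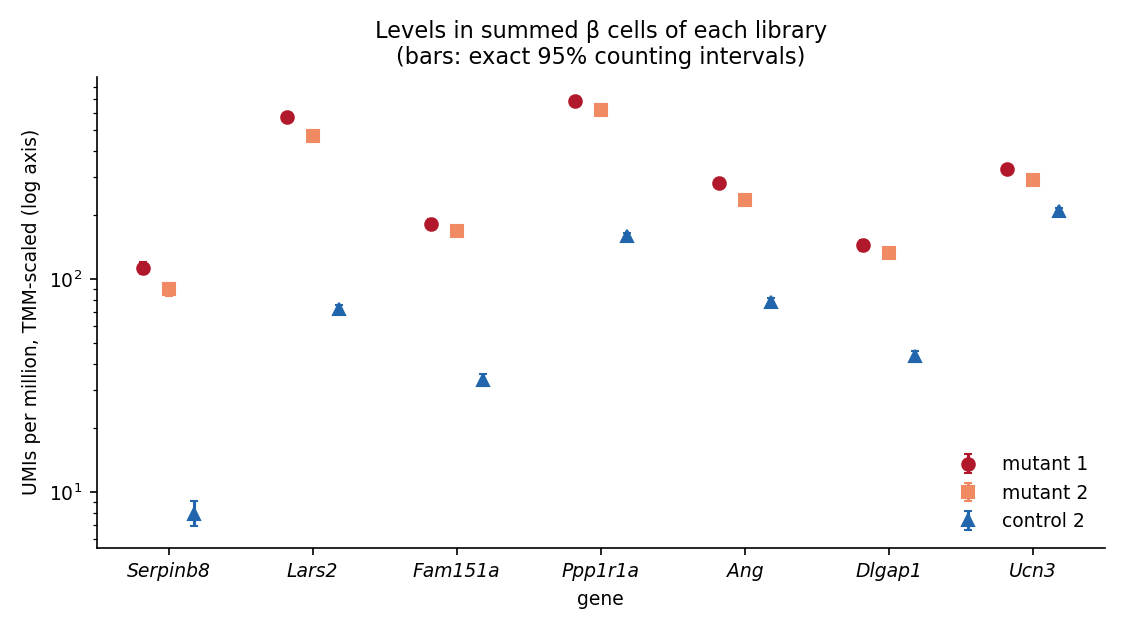
Levels of the 7 genes in summed β cells, as TMM-scaled CPM on a log axis, for mutant 1 (circles), mutant 2 (squares) and control 2 (triangles), with exact 95% counting intervals as bars. The mutant libraries sit together above control 2 for every gene, farthest apart for Serpinb8 (113 and 89.4 against 7.93) and closest for Ucn3 (328 and 292 against 209).

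Over the 4737 genes that averaged 20 CPM or more in β cells, 681 (14.4%) were past 0.5 in both mutant libraries and 1543 (32.6%) were below -0.5 in both, so that 6 of 7 genes past 0.5 restates how they were picked. By the smaller of the ratios, Serpinb8 ranked 4, Lars2 11, Fam151a 15, Ppp1r1a 23, Dlgap1 47 and Ang 50, while Ucn3 ranked 694. The split of higher and lower genes depends on scaling. Without TMM factors, as CPM of all UMIs, 1960 genes were higher and 573 lower, and among β cells of 3000 to 6000 UMIs, 1298 were higher and 815 lower. The median gene lay at -0.20 and -0.22 in the TMM-scaled ratios, at 0.42 and 0.40 without TMM factors, at 0.16 and 0.12 in cells of 3000 to 6000 UMIs, and at -0.13 and -0.14 with DESeq2 size factors. The 7 genes were above the median gene under each of these scalings.

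Because the β cells of control 2 were deeper, the ratios were recomputed in cells of like depth. Between 3000 and 6000 UMIs there were 819, 616 and 270 β cells. There, Serpinb8 had 395, 292 and 24 UMIs, which gave 122, 105 and 19.5 CPM, and the mean of its log2 ratios was 2.51 instead of 3.65. The mean ratio of Lars2 was 2.07 instead of 2.84. Both were thus lower at matched depth, whereas Ucn3, at 405, 341 and 155 CPM, had a mean ratio of 1.25 instead of 0.56. Fam151a (2.57), Ppp1r1a (2.46), Ang (2.25) and Dlgap1 (1.62) moved by less on this scale. The order of the genes by ratio therefore differed between all β cells and those of matched depth, where Serpinb8, Fam151a and Ppp1r1a lay close together.

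Shares of cells with a UMI were compared after thinning each β cell to 1000 UMIs, which left out 260, 110 and 0 shallower β cells. A Ppp1r1a UMI was present in 53.0%, 49.0% and 13.0% of the thinned β cells, and a Lars2 UMI in 43.2%, 40.2% and 6.96%. UMIs of these genes were thus spread over many β cells in the mutant libraries. Ucn3 was present in 28.9%, 28.8% and 14.6% of thinned cells. Without thinning, its share was 59.0%, 67.5% and 75.6%, with control 2 highest, in the order of the libraries' depths. Ang (24.7%, 23.6% and 6.46%), Fam151a (19.2%, 17.9% and 2.45%), Dlgap1 (15.0%, 14.6% and 3.26%) and Serpinb8 (12.0%, 10.6% and 1.10%) were present in fewer cells. A β cell thinned in this way carried a UMI of 1.96, 1.85 and 0.479 of the 7 genes on average. At least 3 of the 7 were seen in 30.8%, 28.0% and 1.30% of cells, and none in 10.4%, 12.4% and 61.0%.

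With TMM scaling, all 7 genes were higher in β cells than in α, δ and non-endocrine cells in each of the 3 libraries. As plain shares of all UMIs, this did not hold throughout control 2. There, Serpinb8 and Dlgap1 were not higher than in non-endocrine cells, Ang than in α cells or Lars2 than in δ cells. Ang, for example, had 2079 of 35166231 UMIs in control β cells and 31 of 312881 in control α cells. In control 2 alone, the counting interval of the difference lay above 0 for 5 of 7 genes against α cells, 6 of 7 against δ cells and 6 of 7 against non-endocrine cells. The exceptions were Ang against α cells and Serpinb8 against δ and non-endocrine cells. Serpinb8 had 0 UMIs in control α cells and was left out of the 5, although its open interval began at 0.20 there. Over the sums of the 3 libraries with the library as a block, all 7 passed edgeR's quasi-likelihood test (Benjamini-Hochberg adjustment over all genes) against each class, where 13.5% of 13035 genes were higher in β than in α cells, 5.27% of 12195 against δ cells and 22.1% of 13588 against non-endocrine cells. The mutant β sums that chose the genes are part of that test, so it is no independent support and its p-values are not given. Without the block, 2 of 7 genes passed against α cells (Fam151a and Ucn3), where 326 of 12067 genes were higher in β cells. Against δ cells 4 of the 7 passed, where 149 of 11183 genes were higher. Stricter hormone cuts left 3 and 4 δ cells in the mutant libraries. With them only Ucn3 passed against δ cells, where 42 of 11140 genes were higher. These tests use sums over cells, where fewer expressing cells and less RNA per cell cannot be told apart, and nothing in the labels says that the replicates came from separate animals. Levels across classes are given as CPM scaled by TMM over the 12 sums of class and library, a scale that differs from the one used within β cells. Differences between classes are on the log2 scale, from the 6 sums of the pair of classes with TMM factors of their own, so they are not the exact ratios of those levels. Their standard errors (SE) come from edgeR's test and do not measure the spread among the 3 libraries.

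Ucn3 was separated from the other classes in every library. It was at 630, 550 and 306 CPM in β cells, at 82.5, 58.9 and 58.2 in α cells, at 45.8, 32.1 and 12.9 in δ cells and at 34.5, 41.6 and 12.8 in non-endocrine cells. Every β value was thus above every value of another class, and the δ and non-endocrine values overlapped. The difference was 2.86 log2 units against α cells (SE 0.19), 4.04 against δ cells (SE 0.41) and 4.29 against non-endocrine cells (SE 0.34). Within control 2 alone, β cells exceeded α cells by 2.65 and non-endocrine cells by 4.96, so that the separation was present in WT cells.

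Serpinb8 was at 217 and 168 CPM in mutant β cells and 11.6 in control 2 β cells. In α cells it was at 28.6, 13.3 and 0 CPM, from 17, 9 and 0 UMIs, and in δ cells it had 0, 0 and 1 UMI. The β cells exceeded α cells by 3.21 log2 units (SE 0.25), δ cells by 5.05 (SE 0.81) and non-endocrine cells by 2.47 (SE 0.40). The separation rested on the mutant libraries. Against non-endocrine cells it was 3.71 and 3.14 in the mutants and 0.66 in control 2, with a counting interval of -0.49 to 2.12, so that in control 2 a difference was not detectable at this depth.

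Fam151a was at 350, 316 and 49.0 CPM in β cells and at 35.4, 32.4 and 12.9 in α cells, a difference of 3.13 (SE 0.22). It exceeded δ cells by 2.61 (SE 0.43) and non-endocrine cells by 3.70 (SE 0.37). Ppp1r1a was at 1323, 1164 and 233 CPM in β cells, 216, 128 and 48.5 in α cells, 275, 241 and 103 in δ cells and 74.7, 72.8 and 22.4 in non-endocrine cells. Among the other classes it was thus highest in δ cells in every library, with counting intervals that overlapped those of α cells in mutant 1 and control 2. The β cells exceeded δ cells by 1.79 (SE 0.30) and α cells by 2.73 (SE 0.19). Without TMM factors the difference from δ cells was 0.60 and did not pass the threshold.

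Lars2 was at 1106, 881 and 106 CPM in β cells and 236, 147 and 55.0 in α cells. The difference from α cells was 2.12 over the libraries (SE 0.21), with 2.19 and 2.57 in the mutants and 1.20 in control 2. Against δ cells it was 4.18 and 3.08 in the mutants and 1.04 in control 2, and against non-endocrine cells 4.19, 3.83 and 1.63. The wider gap in the mutants restates how Lars2 was chosen. With TMM scaling, Lars2 was higher in control β cells too. As a plain share of all UMIs it was not above control δ cells, with 1940 of 35166231 UMIs in β and 12 of 202726 in δ cells. Dlgap1 differed from non-endocrine cells by 2.84 and 2.25 in the mutants and 1.05 in control 2. Its difference over the libraries, 1.82 (SE 0.30), was 0.57 without TMM factors and did not pass the threshold. Ang was the gene least set apart from α cells, at 541, 442 and 114 CPM in β cells and 236, 171 and 100.2 in α cells. Its difference from α cells was 0.98 (SE 0.19), and in control 2 alone it was 0.43, with a counting interval of -0.08 to 1.0. That call was lost without mutant 2 (0.68) and without TMM factors (0.34).

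**Figure D2:**
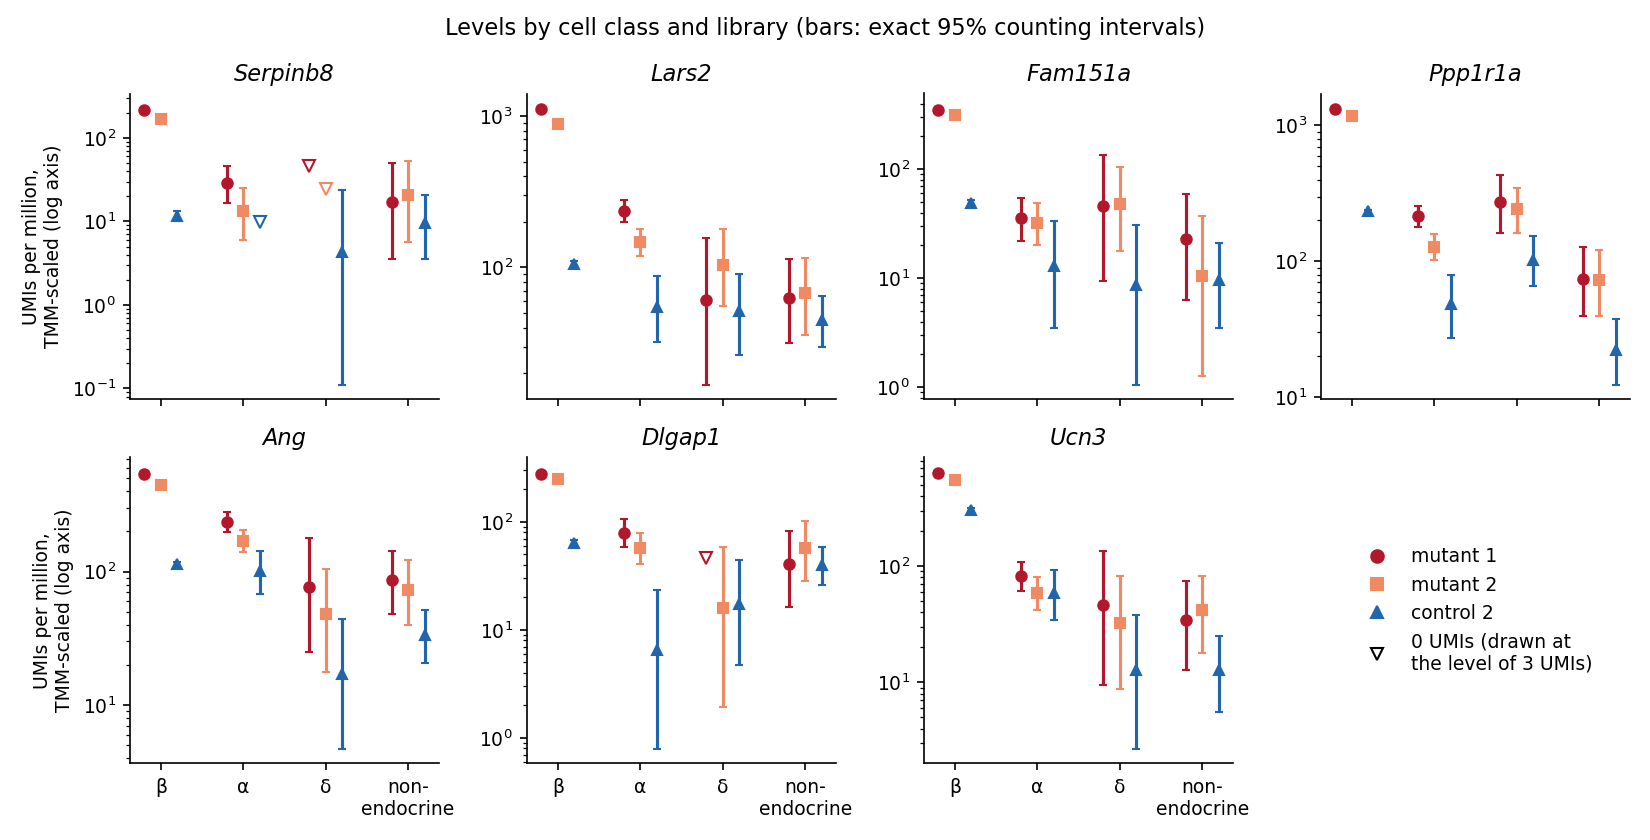
Levels of each gene in β, α, δ and non-endocrine cells of the 3 libraries, as CPM scaled by TMM over all 12 sums, on log axes with exact 95% counting intervals. Open triangles mark sums with 0 UMIs, drawn at the level of 3 UMIs. Ucn3 is separated in every library, whereas the β level of Ang in control 2 (114) lies near its α level (100.2).

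Insulin mRNA was found in every class, at a median of 3.57% to 4.89% of UMIs in α, δ and non-endocrine cells, so RNA of lysed β cells could add UMIs of the 7 genes there. Since 1 source keeps its genes in 1 ratio, the UMIs that such free RNA would give were computed from the insulin of each class. Summed over cells, insulin took 11.8% of UMIs in α and 11.6% in δ cells of control 2, against 4.59% to 6.66% in the mutants. In control 2, 6 of 40 α cells and 2 of 34 δ cells had 10% or more insulin. In α cells, Serpinb8 had 17, 9 and 0 UMIs where free RNA would give 13.4, 8.45 and 0.388, and Fam151a had 21, 22 and 4 where it would give 21.7, 15.9 and 1.64. The counting intervals of both genes reached that level in every library, so that a signal of α cells themselves was not detectable at this depth. Ucn3 in α cells, with 49, 40 and 18 UMIs, was 1.25 to 1.76 times that level and above it in 2 of 3 libraries. In δ and non-endocrine cells Ucn3 was not above it in any library.

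Other genes were above the free-RNA level outside β cells. Ang had 140, 116 and 31 UMIs in α cells where free RNA would give 33.5, 22.2 and 3.80, and it was 3.81 to 9.84 times that level in non-endocrine cells. Lars2 in α cells was 2.04 to 4.79 times the free-RNA level, with 140, 100 and 17 UMIs. Ppp1r1a in δ cells had 18, 30 and 24 UMIs where free RNA would give 3.21, 7.12 and 4.97, and in α cells it was 1.49 to 1.92 times that level. Dlgap1 in non-endocrine cells had 7, 11 and 25 UMIs where free RNA would give 2.02, 1.93 and 1.19. In each of these cases the counting interval lay above the free-RNA level in all 3 libraries. Among α cells with insulin under 10%, Ang and Lars2 stayed above it in all 3 libraries. Ppp1r1a did so in the mutants only, since in control 2 it had 4 UMIs where free RNA would give 1.81, within its counting interval. Ucn3 was above the free-RNA level in these α cells in all 3 libraries, with 29, 29 and 7 UMIs where free RNA would give 19.3, 18.1 and 2.37. Of the 25 Dlgap1 UMIs in non-endocrine cells of control 2, 9 were in endothelial-like cells, and of the 28 Lars2 UMIs there, 16 were. Serpinb8 had 6 UMIs in these control cells where free RNA would give 0.218, and 5 of them were in endothelial-like cells. In mutant non-endocrine cells its 3 and 4 UMIs were not above the 1.58 and 1.30 that free RNA would give. In mutant 2, 8 of the 11 Dlgap1 UMIs were in 12 cells that carried no type's markers.

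**Figure D3:**
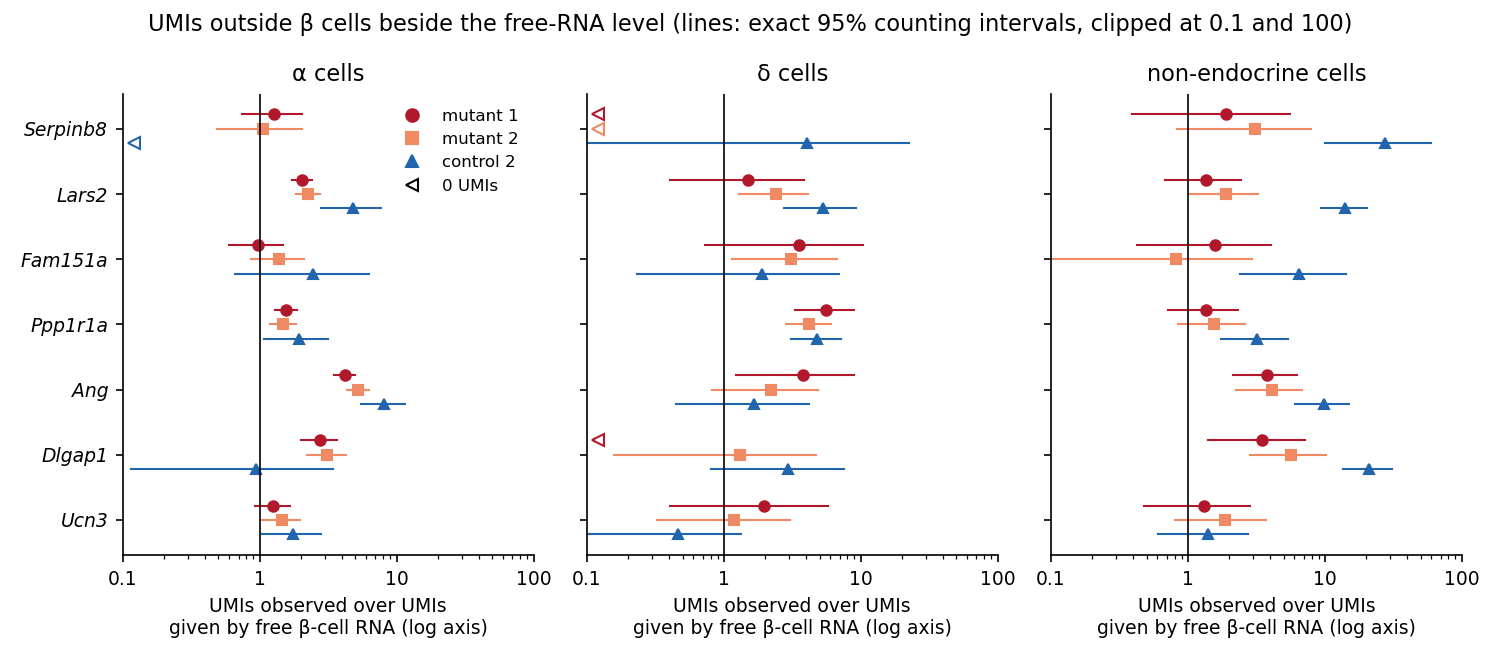
UMIs of each gene outside β cells divided by the UMIs that free β-cell RNA would give, on a log axis, with exact 95% counting intervals clipped at 0.1 and 100 and a line at 1. Ang in α and non-endocrine cells, Ppp1r1a in δ cells and Dlgap1 in non-endocrine cells lie above 1 in every library, whereas Serpinb8 and Fam151a in α cells have intervals that reach 1 or 0 UMIs.

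Whether the difference from control was confined to β cells or shared by the library was then described class by class. Outside β cells, control 2 gave few UMIs, so the intervals are wide. Ppp1r1a was higher in both mutant libraries in each class: its log2 ratios were 2.03 and 1.28 in α cells (counting intervals 1.29 to 2.95 and 0.51 to 2.21), 1.36 and 1.18 in δ cells (0.45 to 2.36 and 0.41 to 2.07) and 1.74 and 1.66 in non-endocrine cells (0.67 to 3.07 and 0.61 to 2.97). Its ratio in β cells, 2.11 and 1.96, lay within or close to those intervals, so that its difference from control 2 was seen in α and δ cells as well as in β cells. In non-endocrine cells its mutant UMIs, 13 and 14, were not above those that free RNA would give, 9.63 and 9.01, whereas the 14 of control 2 were above 4.37. With stricter hormone cuts, which left 24, 19 and 32 non-endocrine cells, its ratios there were 1.33 and -2.11. After free RNA was taken off, its ratios were 1.65 and 0.76 in α cells and 1.47 and 1.18 in δ cells. The α ratios rest on 15 UMIs in control 2, of which 4 were in cells with insulin under 10%. Ang was likewise higher in α cells (1.14 and 0.67) and in non-endocrine cells (1.42 and 1.13), with intervals above 0, and remained at 0.94 and 0.56, and at 1.21 and 0.96, with free RNA taken off. The non-endocrine ratio of Ang in mutant 2 was 0.25 among cells with 3 marker UMIs, and 9 of its 14 UMIs were in 12 cells that carried no type's markers.

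Lars2 was higher in mutant α cells by 1.98 (1.29 to 2.84) and 1.30 (0.58 to 2.17), which became 1.38 and 0.83 with free RNA taken off. In non-endocrine cells its ratios were 0.60 and 0.65, with intervals of -0.52 to 1.68 and -0.39 to 1.68, below the ratios of 2.98 and 2.69 in β cells, and with stricter hormone cuts they were -3.39 and 0.36. Dlgap1 in non-endocrine cells, the class in which it was above the free-RNA level in all libraries, had ratios of 0.14 and 0.57, with intervals of -1.31 to 1.40 and -0.57 to 1.68. The upper bound in mutant 1 was below the β ratio of 1.73, while in mutant 2 the β ratio of 1.61 was inside the interval. With 3 marker UMIs required, the non-endocrine ratios of Dlgap1 were 0.22 and -0.70, so its sign in mutant 2 depends on the setting. Dlgap1 in α cells rested on 2 UMIs in control 2.

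For the genes whose UMIs outside β cells lay mostly near the free-RNA level, a ratio there says little about those cells. Among the exceptions were Serpinb8 and Fam151a in non-endocrine cells of control 2, with 6 UMIs each where free RNA would give 0.218 and 0.920. Serpinb8 had 26 UMIs in mutant α cells and 0 in control 2, which with a floor of 3 UMIs for the control gives a ratio of 1.98-fold. On the log2 scale its counting interval began at 0.59 for the mutants together, at 1.02 for mutant 1 and at -0.24 for mutant 2. Free RNA would give 13.4 of these UMIs in mutant 1 and 8.45 in mutant 2. Fam151a in α cells had ratios of 1.25 and 1.13, with intervals that included 0. Ucn3 in α cells had ratios of 0.41 and -0.07, again with intervals that included 0, and in non-endocrine cells of 1.37 and 1.57 on 6, 8 and 8 UMIs. Among α cells with insulin under 10%, where Ucn3 was above the free-RNA level in all 3 libraries, its ratios were 0.79 and 0.54. Across all genes with at least 20 CPM, the share past 0.5 in both mutant libraries was 22.1% in α cells, 11.2% in δ cells and 13.2% in non-endocrine cells. Over members with a UMI in every library, the median ratio was 1.62 and 1.20 in α cells (6 genes), 1.41 and 1.18 in δ cells (5 genes) and 1.16 and 0.99 in non-endocrine cells (7 genes). The median of all genes was 0.13 and 0.11, -0.34 and -0.07, and -0.09 and -0.10 in these classes.

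**Figure D4:**
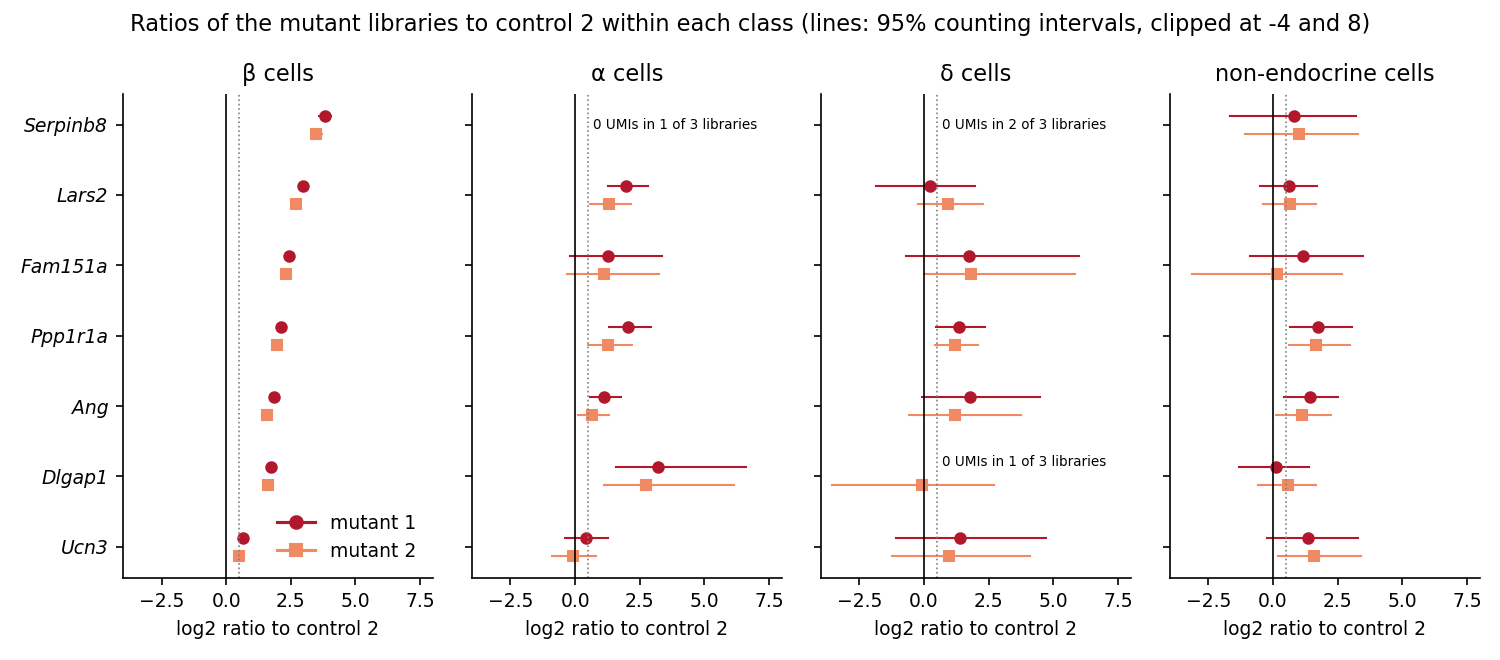
Log2 ratios of mutant 1 (circles) and mutant 2 (squares) to control 2 for each gene within β, α, δ and non-endocrine cells, with 95% counting intervals clipped at -4 and 8, a solid line at 0 and a dotted line at 0.5. The intervals in β cells are narrow and above 0 for every gene, and outside β cells those of Ppp1r1a are above 0 in every class.

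Within β cells, the 7 genes were only weakly correlated from cell to cell. At 1000 UMIs per cell, the median Spearman correlation over the 21 pairs was 0.0231, 0.0241 and 0.00701, and 17, 18 and 13 pairs were positive. The strongest pair was Serpinb8 with Lars2, at 0.103, 0.119 and 0.050. They were found in the same cell 1.28, 1.35 and 2.61 times as often as the product of their shares gives, in 126, 79 and 4 cells. Correlations of this size in counts of mostly 0 or 1 are no finding, and these values share the depth and insulin content of each cell.

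The insulin content of a cell separated the genes more clearly. The β cells of each library were divided into quartiles by the share of UMIs from Ins1 and Ins2, and the genes were counted per 1000000 UMIs other than insulin. From the lowest to the highest quartile, Lars2 was at 1939, 1202, 945 and 684 in mutant 1, at 1727, 1063, 814 and 584 in mutant 2, and at 214, 153, 94.8 and 84.4 in control 2. It was lower at each step in all 3 libraries, and the ratio of the highest to the lowest quartile was 0.353, 0.338 and 0.394. Only 20 of 4764, 21 of 4834 and 4 of 4160 genes had a lower ratio, while the median gene was at 1.05, 1.05 and 0.997. Serpinb8 was also lower at each step, from 332 to 144 in mutant 1, from 291 to 112 in mutant 2 and from 23.6 to 6.05 in control 2.

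Ucn3 had the opposite course. It was at 489, 592, 711 and 716 from the lowest to the highest quartile in mutant 1, at 423, 562, 648 and 687 in mutant 2, and at 285, 353, 379 and 443 in control 2. It was thus higher at each step in all 3 libraries, and the ratio of highest to lowest was 1.46, 1.62 and 1.56. Such a ratio was within the range of most genes, since 895 of 4764, 570 of 4834 and 343 of 4160 genes had a higher one. Dlgap1 was lower at each step (ratios 0.73, 0.77 and 0.75), and Fam151a, Ppp1r1a and Ang went up and down between quartiles. Ppp1r1a ended above its lowest quartile in all 3 libraries, with ratios of 1.21, 1.16 and 1.08, the last within counting error.

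The difference between libraries was also seen among β cells of like insulin content. The second quartile of mutant 1 (median insulin share 37.3%), the second of mutant 2 (39.2%) and the lowest of control 2 (38.7%) were close. There, Lars2 was at 1202, 1063 and 214, Serpinb8 at 240, 214 and 23.6, and Ucn3 at 592, 562 and 285. The mutant libraries were above control 2 for all 3 genes at this insulin share. Depth moved with these values: by quartile of depth, the ratio of highest to lowest was 0.57, 0.51 and 0.37 for Lars2 and 1.17, 1.41 and 1.5 for Ucn3. The part of depth in the gradients over insulin share was not tested.

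**Figure D5:**
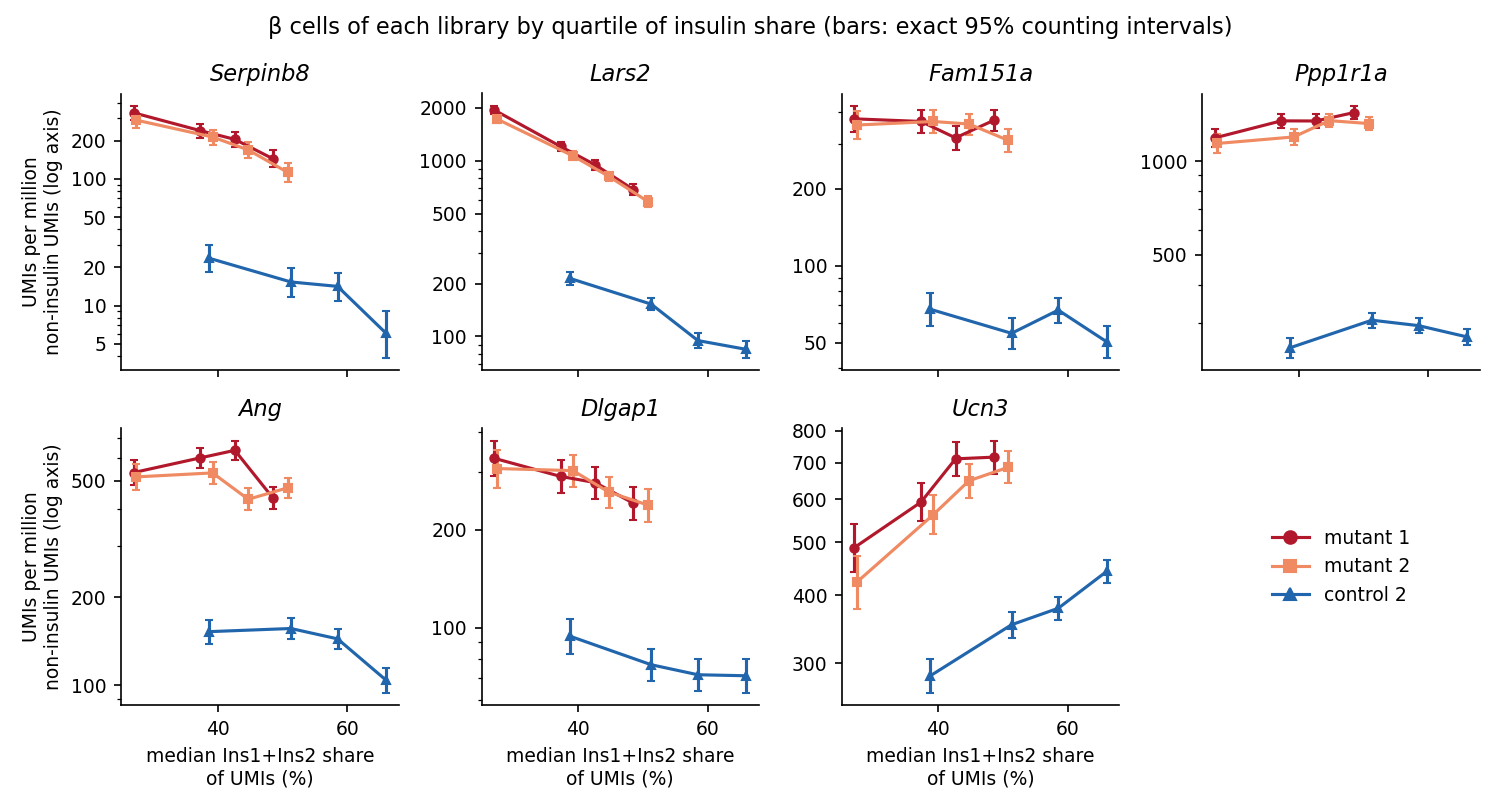
Level of each gene in β cells by quartile of insulin share, as UMIs per 1000000 non-insulin UMIs (log axis) against the median share of Ins1 and Ins2 in percent, for the 3 libraries with exact 95% counting intervals. Lars2 and Serpinb8 are lower in each higher quartile and Ucn3 is higher, and the mutant libraries lie above control 2 where the insulin shares overlap.

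The relatives of the 7 genes were examined in β cells, from lists by role, with the same minimum of 20 CPM and the same 0.5 in both mutant libraries. Of 27 serpins of clade B, 2 reached the minimum: Serpinb8 was higher, and Serpinb6a lower, at -0.51 and -0.61. Of 17 mitochondrial aminoacyl-tRNA synthetases, 5 reached it, and of these Lars2 was past 0.5, while Cars2, Fars2, Iars2 and Rars2 lay between -0.27 and 0.28. The cytosolic leucyl-tRNA synthetase, listed as Lars, was lower, at -1.5 and -1.18. Under the minimum, Mars2 had ratios of 1.79 and 1.55 on 48, 44 and 45 UMIs. The 4 mitochondrial mRNAs on the list did not move with Lars2: mt-Co1, mt-Nd1, mt-Cytb and mt-Atp6 were lower in both mutant libraries. Without TMM scaling, all mitochondrial genes together took a median of 0.956%, 0.896% and 0.960% of the UMIs of a β cell. These shares are not on the scale of the 4 ratios. The TMM factors of the β sums were 1.14, 1.15 and 0.760, so near-equal shares would be lower in the mutants on that scale as well. Whether the 4 mRNAs differed from mitochondrial RNA as a whole was not tested. The mitochondrial ribosomal RNAs were not among the counted genes. Fam151b, the paralog of Fam151a, was under the minimum.

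Of 12 inhibitors and subunits of PP1, 7 reached the minimum, with 2 higher and 3 lower. Ppp1r1a and the catalytic subunit Ppp1ca (0.99 and 0.71) were higher, and the catalytic subunits Ppp1cb (-0.90 in both) and Ppp1cc (-0.94 and -0.95) were lower, beside the inhibitor Ppp1r14b (-0.79 and -0.81). Of 11 genes of the RNase A family with its inhibitor, 3 reached it: Ang was higher, its neighbour Rnase4 was at 0.05 and 0.21, and Rnh1, the inhibitor of these ribonucleases, was lower at -0.58 and -0.65. Ang therefore differed from the overlapping Rnase4. Of 14 Dlgap genes and scaffold partners, 7 reached it, with 3 higher and 4 lower. Dlg4, which encodes PSD-95, a binding partner of Dlgap proteins, was higher with Dlgap1 (1.39 and 1.18), as was Dynll2 (0.96 and 0.80), and Dynll1 was lower (-1.86 and -2.0).

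Of 7 CRF genes, Ucn3 was the only one to reach the minimum in β cells. Of 18 genes of mature β cells, all reached it, with 9 higher and 4 lower, beside 14.4% higher and 32.6% lower over all genes, a split that turns without TMM factors. With TMM scaling, Ucn3 was in neither group. Trpm5, a cation channel (2.86 and 2.69), Mafa, a transcription factor (2.14 and 2.0), Sytl4, a granule protein (1.17 and 1.23), and Ero1b, an oxidoreductase of insulin folding (1.13 and 0.94), were higher. The insulin genes Ins1 (-1.58 and -1.34) and Ins2 (-0.91 and -0.88), the glucose-6-phosphatase subunit G6pc2 and the prohormone convertase Pcsk1 were lower. Heat shock genes and nuclear RNAs also differed. Of 6 heat shock genes 4 were higher, with Dnajb1 at 3.15 and 3.01, and Hspa1b was lower, at -1.20 and -0.77. Of 4 nuclear RNAs 3 were lower. Whether handling, RNA quality or genotype lay behind these differences was not tested. Summed markers of other islet cells, as CPM of all UMIs, were also higher in mutant β cells. The sums were 3169, 3788 and 2160 CPM for 7 α markers and 501, 545 and 203 for 5 δ markers. For 2 pancreatic polypeptide markers they were 1133, 1258 and 398. In the mutants the α sum was mostly Gcg (2486, 3006 and 165 in the 3 libraries), while the α marker Ttr was lower (615, 699 and 1956). The part of these markers, and of the heat shock and nuclear RNA differences, in the ratios of the 7 genes was not tested.

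Genes with a pattern like those of the 7 were sought over the 12 sums of class and library, among 6810 genes, by Pearson's r of log2(CPM + 1). Ucn3 was most like Ero1b (r = 0.982) and Kdelr1 (0.970). Ppp1r1a was most like Nt5c3 and Madd (0.977 each), Fam151a like Atp2a3 (0.967), Ang like Mief1 (0.973), Serpinb8 like Arl8a (0.960) and Dlgap1 like Tmem229b (0.959). Among the 7 themselves, Fam151a and Ppp1r1a were closest (0.941), followed by Lars2 and Fam151a (0.916) and by Serpinb8 and Dlgap1 (0.902), and Ppp1r1a and Dlgap1 were least alike (0.384). The 12 sums share 3 libraries and their depths, so these values describe the tables only.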

How the data were processed

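Libraries were made from dissociated mouse islets by droplet single-cell RNA-Seq. The authors made UMI counts per gene and cell with DropEst, per the study's methods, and the deposited values are whole-number counts without normalization. The submitters' processing notes name GRCm39 and Seurat. Versions and the counting of strands are not given in the sources used here. Total UMIs were 8448466, 9013499 and 36985253 over 3023, 2045 and 2308 barcodes in mutant 1, mutant 2 and control 2. Over 13222 genes, summed counts of the mutant libraries differed beyond sampling noise, with a chi-square 4.53 times its degrees of freedom, so they were treated as separate samples.

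Cells with at least 500 UMIs, at least 100 genes and at most 10% mitochondrial UMIs were kept, and cells were classed by share of UMIs. β cells had Ins1 and Ins2 at 20% or more and Gcg, Sst and Ppy each under 2%. α and δ cells had Gcg or Sst at 5% or more with the other minor hormones under 5%, and non-endocrine cells had all hormones under 10%. No doublet caller was run. UMIs were summed per class and library, scaled by TMM in edgeR 4.0.16 (R 4.3.3), and ratios used a prior count of 1. Classes were compared with edgeR's quasi-likelihood test on the sums, with library as a block, and called at an adjusted p under 0.05. SEs were taken as the log2 difference over the square root of F. Genotypes were not tested against each other, since counts of 1 control library were used. Intervals are exact at 95% and cover counting error only. Cells were thinned at random for shares and correlations. The tests were checked on simulated data: for β against α, 200 of 200 genes changed by 2 log2 units were recovered with 5 false calls among 12520 genes, and for the count by fold, 200 of 200 at 1.5 log2 units with 0 false among 4621. Alternatives covered scaling (DESeq2 1.42.0 size factors among them), depth, cell classes, filters, the prior count, the block and each library left out. Python 3.11.15, numpy 2.4.6, scipy 1.17.1, pandas 2.3.3 and matplotlib 3.10.9 were used. Positions come from GENCODE vM21 (GRCm38) and were not converted.

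The 7 genes and the lists by role were chosen with earlier results of these data known. The genes named are these 7 in every class and library, members of those lists, and the genes most like them, of which that for Lars2 is not reported here.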

Additional observations from a re-analysis of the deposited data

Results flagged for a closer look

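The mean ratio of Dlgap1 to control had opposite signs in β and δ cells. In β cells it was higher in both mutant libraries than in control 2, by 1.73 and 1.61 on the log2 scale, whereas in δ cells its log2 ratios were -1.77 and -0.06, with a mean of -0.92. The δ value rests on 0, 2 and 4 UMIs in mutant 1, mutant 2 and control 2, with counting intervals that include 0, and the difference between the classes was not tested. In mutant 2 the δ ratio was 0.18 as CPM of all UMIs, 0.84 with stricter hormone cuts and 0.38 with Sst from 1%, so its sign there depends on the setting.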

How the results depend on the processing

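Since the genes were picked for being higher in mutant β cells, the β values that follow are no independent support. The log2 ratio to control 2 in β cells was above 0 for every gene under every alternative (84 values). Its median over the 7 genes, 2.03, became 2.63 as CPM of all UMIs, 2.28 without hormone and mitochondrial genes, 2.32 with cells thinned to 1000 UMIs, 2.25 in cells of 3000 to 6000 UMIs and 2.49 as a mean over cells, and it was 1.96 to 2.11 with 1 mutant library left out. The cause of these shifts was not tested. Over its alternatives, the Serpinb8 ratio ranged from 2.51 to 4.24, that of Lars2 from 2.07 to 3.43 and that of Ucn3 from 0.48 to 1.25. In α cells the median, 1.41, became 2.27 in cells with insulin under 10%. That value rests on 34 α cells of control 2 with 0 Fam151a, 1 Dlgap1 and 4 Ppp1r1a UMIs, so the prior count weighs on it. It does not show a larger difference in these cells. In δ cells it was 1.29, 1.71 as CPM of all UMIs, 1.67 with Sst from 1% and -0.18 with stricter hormone cuts, which left 3 and 4 mutant δ cells. In non-endocrine cells it was 1.07, 0.77 with 3 marker UMIs required and 0.19 with stricter cuts. Under stricter cuts the mean of both ratios turned negative for Ucn3 in δ cells (-0.94) and for Serpinb8 (-1.05), Lars2 (-1.51) and Ppp1r1a (-0.39) in non-endocrine cells, although Lars2 in mutant 2 (0.36) and Ppp1r1a in mutant 1 (1.33) stayed above 0.

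Of 203 values of the differences between β cells and other classes under alternatives, all were above 0 and 185 stayed on the same side of the threshold. The mutant β sums that chose the genes are part of these values, so they are no independent support. Without the library block, 2 of 7 genes passed against α cells, beside 326 of 12067 over all genes. Against δ cells 4 passed, beside 149 of 11183, and with stricter cuts 1 passed, beside 42 of 11140. Without TMM factors, Ppp1r1a against δ cells (0.60) and Dlgap1 against non-endocrine cells (0.57) did not pass. The 1764 genes higher in β than α cells became 869 with DESeq2, 501 without TMM factors, 964 without mutant 1, 423 without mutant 2 and 326 without the block. Against δ cells, 643 became 228 with DESeq2, 133 without TMM factors, 193 without mutant 2, 415 without control 2, 149 without the block, 42 with stricter cuts and 1225 with Sst from 1%. Against non-endocrine cells, 3003 became 1579 with DESeq2, 553 without TMM factors, 1706 without control 2 and 1580 without the block. Without TMM factors, the higher and lower counts, 1764 and 1285, 643 and 396, and 3003 and 2423 in these comparisons, became 501 and 3888, 133 and 2898, and 553 and 5747. The 681 genes higher in both mutant libraries became 1254 at a minimum of 5 CPM, 1960 as CPM of all UMIs, 219 at a log2 ratio of 1 and 1298 at matched depth. No paired analysis was possible because only 1 control library has counts here. The 40 control α cells, and the 26 to 36 δ cells of a library, limit what can be detected outside β cells.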

Other observations

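Pancreatic polypeptide cells, which entered no comparison, numbered 58, 36 and 22 in mutant 1, mutant 2 and control 2. Lars2 had 26, 11 and 1 UMIs there where free β-cell RNA would give 12.6, 4.80 and 1.53, and Ppp1r1a had 24, 18 and 5 where it would give 15.0, 6.35 and 3.36. Serpinb8, Ang and Ucn3 were not above the free-RNA level in these cells in any of the 3 libraries.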
